A study of Mus musculus with 14 samples.

Results

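The contractile genes of smooth muscle were examined for peaks of BMI1 and of H2AK119ub in cardiac Sca1+CD45- cells. The set has 10 members, Acta2, Tagln, Myh11, Cnn1, Smtn, Lmod1, Mylk, Synpo2, Cald1 and Tpm2, of 21887 protein-coding genes in the annotation used. They were listed by name as genes of smooth muscle contraction and were chosen by a reader who knew the Homeostasis peak counts of these data. A peak was assigned to a member when it overlapped the gene body or the 5 kb on either side of it on GRCm38. Peak counts are therefore given as a description, and no test is reported for them.

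Cells were enriched for Sca1+CD45- by magnetic sorting from hearts of C57BL/6 mice aged 6 to 8 weeks. Damage mice had been injected once, intraperitoneally, with paraquat in PBS at 20 mg/kg, and Homeostasis mice with PBS alone. Paraquat is a herbicide that generates superoxide in cells. The 4 groups were Damage BMI1, Damage H2AK119ub, Homeostasis BMI1 and Homeostasis H2AK119ub, with 3 ChIP-seq libraries each. The labels do not say whether replicates came from separate mice, whether mice were pooled, or whether the culture at 3% oxygen that they describe came before ChIP-seq. Peak lists hold no expression, so the gate could not be checked against marker levels, and they do not tell whether few or many of the cells carried a peak.

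BMI1 is a core subunit of Polycomb repressive complex 1, and H2AK119ub, histone H2A with 1 ubiquitin, is a repressive mark laid down by these complexes. Smooth muscle shortens when calcium-activated myosin light chain kinase phosphorylates myosin, which then pulls on actin filaments dressed with tropomyosin, caldesmon and calponin. In cells outside smooth muscle many of these genes are kept low, and several serve as markers of vascular smooth muscle, pericytes and myofibroblasts. Serum response factor (SRF) and its coactivators are their best known activators.

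The Damage lists held 19 to 68 peaks each, and the Homeostasis lists 2000 to 13487. Every peak carried the same score, and read depth is unknown, so lists were compared by position and number only. The Input libraries were not analysed here. Whether the sites described below are also high in Input was not tested.

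At homeostasis the 10 genes split evenly. Mylk, Tpm2, Myh11, Cald1 and Synpo2 held 26 peaks in all, and Acta2, Tagln, Cnn1, Smtn and Lmod1 held none in any list. Of all protein-coding genes, 80.6% held no peak in any of the 12 lists. After paraquat no member held a peak for either antibody. For BMI1 0.142% of protein-coding genes, and for H2AK119ub 0.151%, had a peak in at least 1 Damage library. In 2 or more Damage libraries peaks were found at 0.0137% of protein-coding genes for BMI1 and 0.00914% for H2AK119ub, and in all 3 Damage BMI1 libraries at 0.00457%. BMI1 peaks were present in 2 or more of the 3 Homeostasis libraries at 3 members (Mylk, Tpm2 and Myh11), where 7.34% of all protein-coding genes met this rule. H2AK119ub peaks met it at 5 members (the same 3 with Cald1 and Synpo2), against 9.63% of all protein-coding genes. Mylk and Tpm2 had peaks in all 3 libraries of each antibody, as 4.45% of protein-coding genes did for BMI1, 2.92% for H2AK119ub and 2.55% for both at once. Since the members were chosen with such counts known, these shares are printed beside the counts and nothing is read from their difference.

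**Figure D1:**
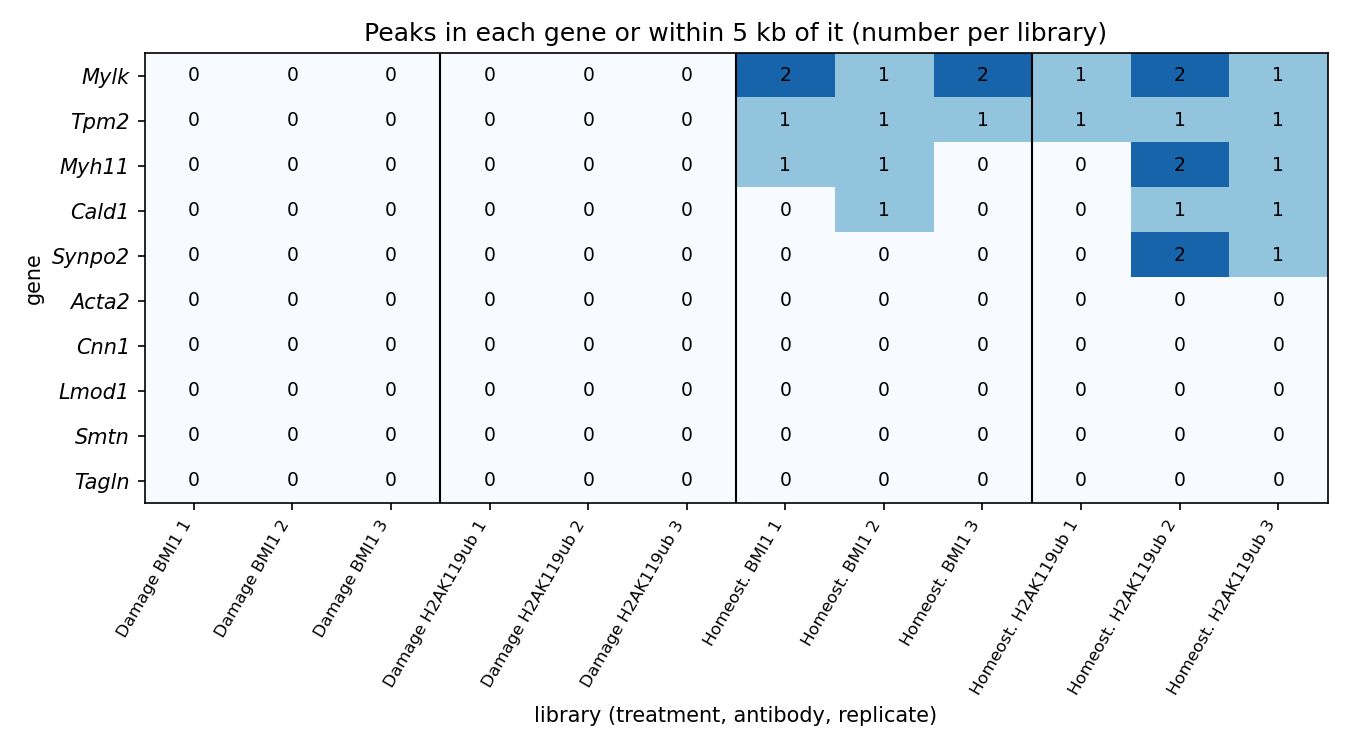
Number of peaks at each of the 10 genes (rows) in each of the 12 libraries (columns, Damage to the left of Homeostasis), counted in the gene body or within 5 kb. All cells of the 6 Damage lists are 0, Mylk and Tpm2 are above 0 in all 6 Homeostasis lists, and the lower 5 genes are 0 throughout.

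Among the thin-filament genes, Tpm2 had peaks in the most lists. It encodes beta-tropomyosin, which lies along actin filaments and governs where myosin can bind (chromosome 4, 43513726 to 43523583, minus strand). Tpm2 held 0 peaks in each of the 6 Damage lists, and exactly 1 peak in each Homeostasis list, whichever the antibody. The 6 peaks formed 1 site at 43525067 to 43525200, whose centre lay 1.58 kb upstream of the annotated start of Tpm2, outside the gene body. Peak centres of the 6 libraries spanned 33 bases, against a median of 17 bases over the sites shared by all 6 lists. The nearest other protein-coding gene, Tln1, which encodes the focal adhesion protein talin, lay 6.31 kb from the site. The promoter of Tpm2 (GRCm38.p6, chr4:43523505-43523804, minus strand, RefSeq) is shown because it is the promoter nearest to the most recurrent site of the set, and its 20 CG dinucleotides are in capitals:
Tpm2: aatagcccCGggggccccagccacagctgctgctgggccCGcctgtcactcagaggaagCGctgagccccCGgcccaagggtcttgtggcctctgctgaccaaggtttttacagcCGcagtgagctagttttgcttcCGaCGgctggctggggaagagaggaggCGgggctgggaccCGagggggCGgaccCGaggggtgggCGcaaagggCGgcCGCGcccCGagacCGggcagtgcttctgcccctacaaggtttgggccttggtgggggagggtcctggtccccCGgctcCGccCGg

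**Figure D2:**
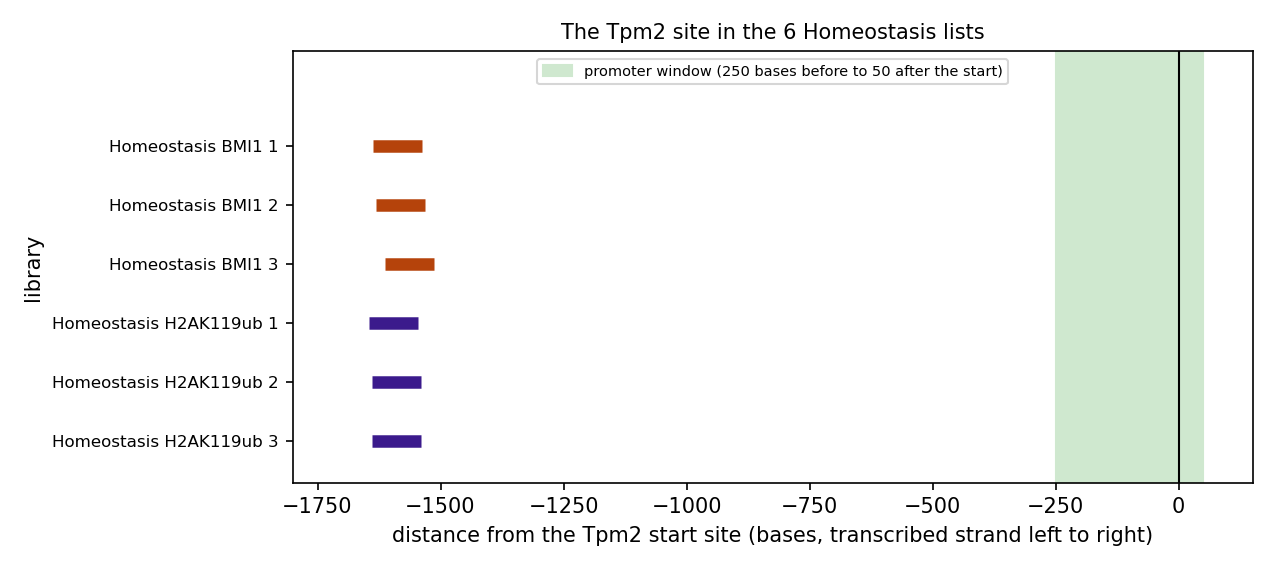
Position of the 6 Homeostasis peaks at Tpm2 (bars, 1 row per library) by distance in bases from the start site of the gene, with the promoter window in green. All 6 bars lie together about 1.58 kb upstream, outside the promoter window.

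That promoter window did not itself hold a peak, and its edge was 1263 bases from the site. The 20 CG dinucleotides exceeded those of 64.1% of protein-coding promoters of the same 300 bases, whose median was 13. Among promoters of the members it held the highest number. The other 8 promoters, of 7 members, held 4 (Mylk), 5 and 6 (both starts of Cald1), 6 (Acta2), 6 (Cnn1), 7 (Lmod1), 11 (Smtn) and 17 (Synpo2). No homeostasis peak overlapped any of the 9 member promoters, and peaks overlapped only 17 of 21263 protein-coding promoters (0.080%). With 2 kb allowed on either side, Tpm2 was the only member promoter of 9 with a peak, as 428 of all protein-coding promoters (2.01%) had. Its peaks were in all 6 lists, as at 54 promoters (0.254%). The strict CArG box, the SRF site, matched in none of the 9 member promoters and in 1.52% of all protein-coding promoters (CC, then 6 letters of A or T, then GG, a pattern that reads the same on both strands). SRF sites that differ from this pattern are well known and were not searched.

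Longer genes held peaks more often, so each count was set beside the number expected from the peaks of its chromosome. For the 19.9 kb window of Tpm2 each Homeostasis library was expected to hold 0.0363 peaks of BMI1 and 0.0531 of H2AK119ub, against 1 observed in each. Over the 3 libraries that was 27.6 times the expected number for BMI1 and 18.8 times for H2AK119ub, the highest of the 10 members for either antibody. In its length class, 3.11% of protein-coding genes had a recurrent BMI1 peak and 3.84% a recurrent H2AK119ub peak, where recurrent means present in 2 or more of 3 libraries. Of 1973 other protein-coding genes with a length within 20% of that of Tpm2, 19 (0.963%) had a peak in all 6 Homeostasis lists and 1787 (90.6%) had none. Exactly the same counts, 1 peak in each list, were found at 17 of them. The first 5 of these by nearness in length were Olfr646, 4930519L02Rik, Cntd1, Aldh3b2 and Ppp1r26, each at a Euclidean distance of 0 over the 6 counts.

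Cald1 encodes caldesmon, which binds actin and tropomyosin and restrains myosin until it is phosphorylated (chromosome 6, 34598495 to 34775469, plus strand). It had 0 peaks in every Damage list. At homeostasis it had 0, 1 and 0 BMI1 peaks in replicates 1, 2 and 3, and 0, 1 and 1 H2AK119ub peaks. All 3 peaks fell on 1 site, 34602607 to 34602728, inside the gene 4.16 kb downstream of its first annotated start. Measured from the start sites in the promoter table, it and the Tpm2 site were within 5 kb of a start of their own gene. Of all protein-coding promoters, 1098 (5.16%) had a homeostasis peak within 5 kb, and 126 (0.593%) had one in all 6 lists. The counts were 0.737 and 1.10 times those expected for the length of Cald1, close to 1 for both antibodies.

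The remaining thin-filament genes were without peaks. Acta2 encodes smooth muscle alpha-actin (chromosome 19, 34240336 to 34255585), and Tagln encodes transgelin, an actin-binding protein widely used as an early smooth muscle marker (chromosome 9, 45929628 to 45936058). Cnn1 encodes calponin, which binds actin and slows myosin cycling (chromosome 9, 22099221 to 22109221). Lmod1 encodes leiomodin, which nucleates actin filaments in smooth muscle (chromosome 1, 135324813 to 135368065). Each had 0 peaks in all 12 lists, as did 80.6% of protein-coding genes. They are short, 6.43 to 43.3 kb long. Together with Smtn they were expected to hold 0.304 peaks of BMI1 and 0.433 of H2AK119ub in a Homeostasis library. Over the 3 libraries of each antibody that was 0.912 and 1.30 peaks. In the length classes of these 5 genes, 77.9 to 92.6% of protein-coding genes held no homeostasis peak. A count of 0 therefore does not set these 5 genes apart from other genes of their length.

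The thick-filament side was represented by Myh11 and by Mylk, the kinase gene that acts on myosin. Myh11 encodes smooth muscle myosin heavy chain, a late and specific marker of the differentiated cell (chromosome 16, 14194527 to 14292188). It had 0 peaks in each Damage list. At homeostasis it had 1, 1 and 0 BMI1 peaks and 0, 2 and 1 H2AK119ub peaks in replicates 1, 2 and 3, so replicate 3 of BMI1 and replicate 1 of H2AK119ub had none. The recurrent site, 14220554 to 14220660, lay 26.1 kb inside the gene from its lower-coordinate end. It was found in 4 lists, with centres within 6 bases of each other, and the nearest other protein-coding gene, Nde1, lay 27.6 kb away. A second site at 14258386 to 14258486 was in Homeostasis H2AK119ub replicate 2 alone, the longest of all lists. Against length, Myh11 held 2.88 times the expected BMI1 peaks and 3.36 times the expected H2AK119ub peaks.

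Mylk encodes myosin light chain kinase (chromosome 16, 34745199 to 35002436, plus strand), and at 257 kb it is the longest member. It had 0 peaks in each Damage list, 2, 1 and 2 BMI1 peaks in Homeostasis replicates 1, 2 and 3, and 1, 2 and 1 H2AK119ub peaks. Homeostasis libraries averaged 1.67 ± 0.58 peaks for BMI1 and 1.33 ± 0.58 for H2AK119ub (SD, n = 3 each), a difference within the spread between libraries. The 9 peaks fell on 3 sites. The first, 34742978 to 34743080, lay 2.17 kb before the start of the gene as annotated and 41.9 kb upstream of the start site whose promoter the reference gives. The second, 34812943 to 34813043, was found in Homeostasis H2AK119ub replicate 2 only. The last, 34973016 to 34973142, lay 88.6% of the way along the gene and was in 5 lists, all 3 of BMI1 and replicates 2 and 3 of H2AK119ub.

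The presence of Mylk in all 6 lists thus rested on different sites. Homeostasis H2AK119ub replicate 1 held the site before the gene and not the one far inside it, and replicates 2 and 3 the reverse. Centres agreed within 2 bases over the 3 lists at the site before the gene, and within 26 bases over the 5 lists at the site far inside. The nearest other protein-coding genes were Ccdc14 at 17.8 kb and Hacd2 at 49.3 kb. For its length Mylk was expected to hold 0.575 peaks of BMI1 and 0.738 of H2AK119ub in a Homeostasis library, and the observed totals were 2.90 and 1.81 times the expected ones. Of protein-coding genes in its length class, the longest of 10, 33.7% had a recurrent BMI1 peak, 41.8% a recurrent H2AK119ub peak and 13.2% a peak in all 6 lists. The median length in that class was 185 kb, so most of its genes were shorter than Mylk.

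**Figure D3:**
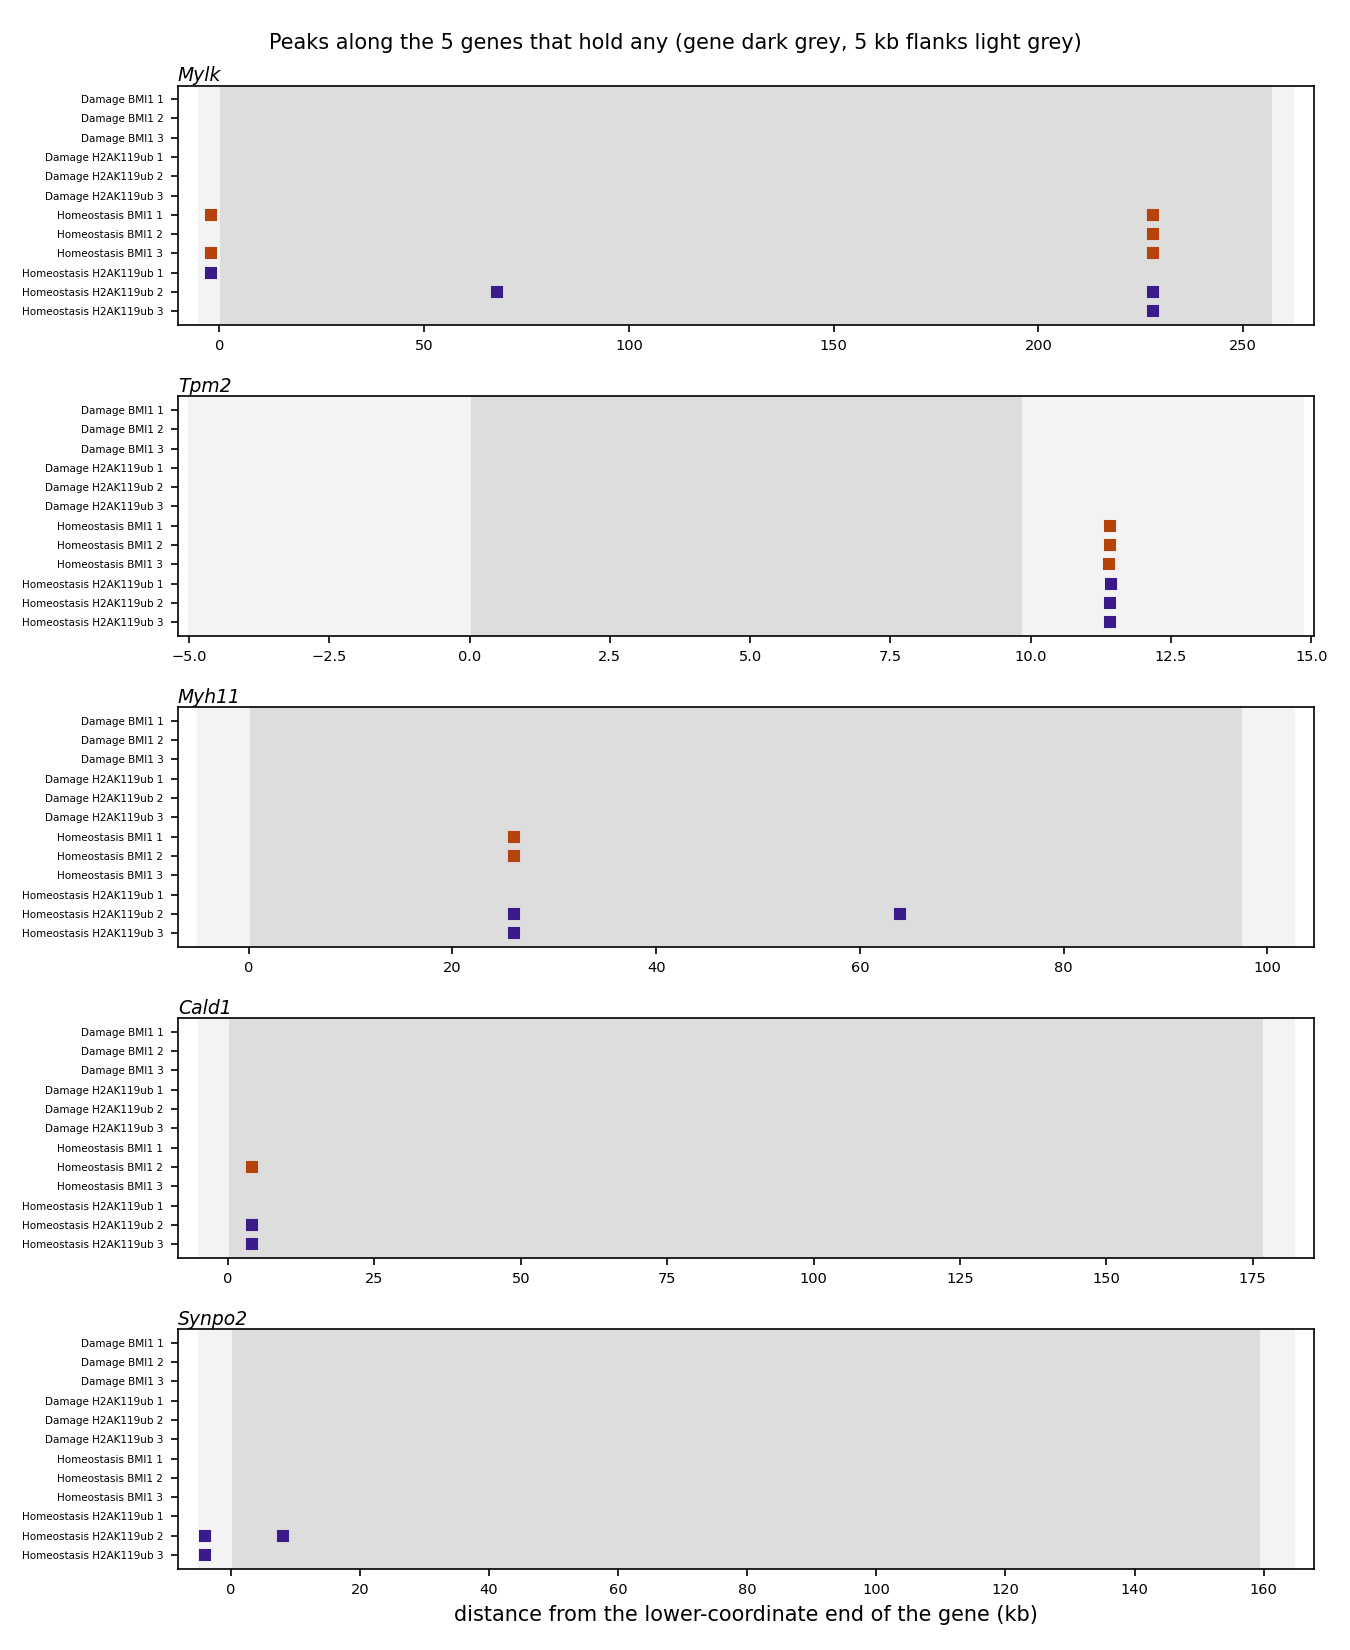
Peaks (squares) along the 5 members that hold any, by distance in kb from the lower-coordinate end of the gene, with 1 row per library, BMI1 in orange and H2AK119ub in purple. Squares of different libraries stack at the same distance, at 26.1 kb in Myh11 for instance, and the 6 Damage rows are empty.

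Smtn and Synpo2 encode proteins that organise actin filaments. Smoothelin, the product of Smtn, is found in contractile smooth muscle (chromosome 11, 3517522 to 3539292), and the gene had 0 peaks in all 12 lists. Synaptopodin 2, also called myopodin, bundles actin (Synpo2, chromosome 3, 123076519 to 123236168, minus strand). Synpo2 had 0 peaks in each Damage list and in each Homeostasis BMI1 list, and 0, 2 and 1 H2AK119ub peaks in Homeostasis replicates 1, 2 and 3. It was the only member with H2AK119ub peaks and no BMI1 peak. In 1 or more Homeostasis libraries, 17.8% of all protein-coding genes had an H2AK119ub peak and 12.4% a BMI1 peak. Genes outside the set thus also had H2AK119ub without BMI1. The length of Synpo2 would have given 0.363 BMI1 peaks per Homeostasis library, so 0 over 3 libraries is about 1 peak below the expected total of 1.09. The site found again in a second list, 123072429 to 123072536, lay 4.04 kb outside the gene, past its 3′ end, with Myoz2 the nearest other protein-coding gene at 37.4 kb. It was the outermost site counted for any member, and no further peak lay between 5 and 10 kb of any of the 10 genes. The other site, 123084548 to 123084648, was in replicate 2 only.

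Over all 10 genes the Homeostasis BMI1 libraries held 4, 4 and 3 peaks, a mean of 3.67 ± 0.58 (SD, n = 3), and the Homeostasis H2AK119ub libraries 2, 8 and 5, a mean of 5.00 ± 3.00. As a share of its list, the set took 0.0797, 0.0532 and 0.0737% of BMI1 peaks and 0.1, 0.0593 and 0.0665% of H2AK119ub peaks. The higher count of H2AK119ub replicate 2 thus went with a longer list, and its share was not the highest. The exact 95% binomial interval of the 2 peaks among the 2000 of H2AK119ub replicate 1 ran from 0.0121 to 0.361%, and intervals here cover counting error only. The set held 1.87 times the expected BMI1 peaks and 1.89 times the expected H2AK119ub peaks at homeostasis, against 0.874 and 0.880 for all protein-coding genes pooled. Replicate values were 2.31, 1.49 and 2.04 for BMI1 and 3.08, 1.74 and 1.88 for H2AK119ub.

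These ratios leaned on peaks outside the gene bodies. With gene bodies alone the set held 1.14 times the expected BMI1 peaks and 1.28 times the expected H2AK119ub peaks, against 0.855 and 0.863 for all protein-coding genes. Recurrent peaks were then found at 2 members for BMI1 (5.72% of all protein-coding genes) and at 3 for H2AK119ub (7.46%), and Tpm2 was no longer among them. Member by member, the median ratio of both antibodies together was 0.473, against 0 for all protein-coding genes, of which 80.7% held no homeostasis peak. With 5 members at 0 and Cald1 next at 0.947, that median is the midpoint of a gap and describes no member. Of the members, 4 exceeded their expectation with both antibodies together, as 14.8% of all protein-coding genes did. These values for all genes are not matched for length. In the shortest length class 94.1% of genes held no homeostasis peak, and in the longest 33.8%.

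**Figure D4:**
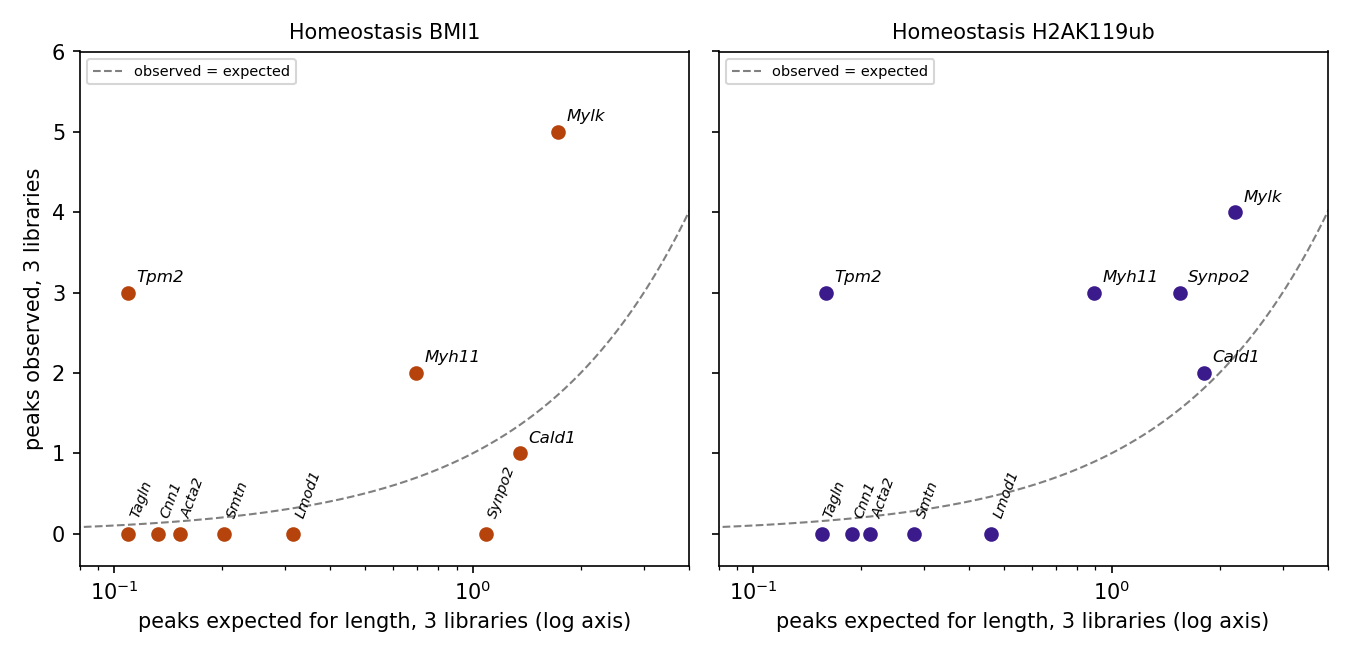
Peaks observed at each member in the 3 Homeostasis libraries of an antibody against the number expected for its length (log axis), with the dashed curve where both are equal. Tpm2 lies far above the curve in both panels (27.6 and 18.8 times the expected number), and Cald1 lies near it.

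Genes of like length give a closer background, though most genes in the class of Mylk were shorter than Mylk. Summing over the members the share of genes in each one's length class with a recurrent peak gives 1.35 members for BMI1 and 1.72 for H2AK119ub, against 3 and 5 observed. For a peak in all 6 lists the sum was 0.495, against 2 observed. The H2AK119ub count depended on which libraries were compared. Without H2AK119ub replicate 2, or without replicate 3, only Mylk and Tpm2 had a peak in both remaining libraries, where 3% and 3.02% of all protein-coding genes did.

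**Figure D5:**
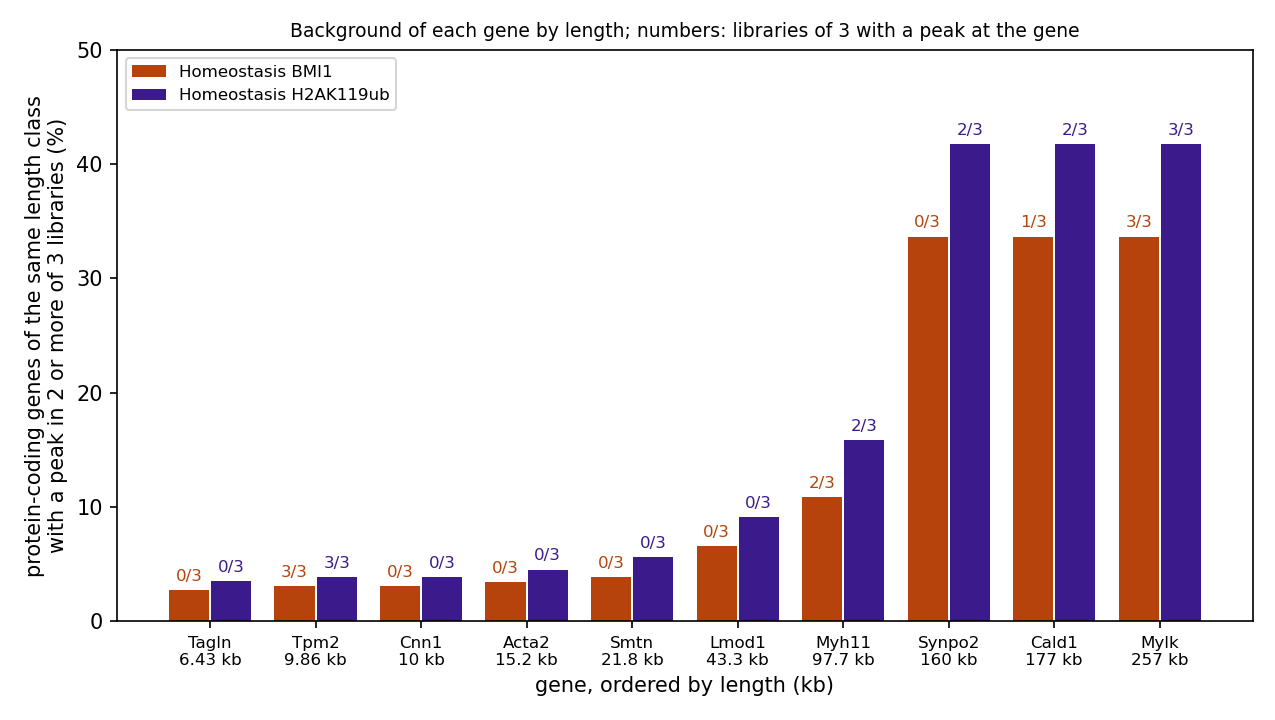
For each member, ordered by length, the bars give the percentage of protein-coding genes of its length class (10 classes) with a peak in 2 or more of 3 Homeostasis libraries, and the numbers above give the libraries with a peak at the member itself. Tpm2 has 3 of 3 for both antibodies in a class where the bars stand at 3.11 and 3.84%.

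Sites were then followed across antibodies. The 26 peaks, each 101 bases wide, merged into 9 sites, 6 with their centre in a gene body and 3 outside. None overlapped an annotated tRNA or ribosomal RNA gene. The same counts over all homeostasis sites are not given here, so nothing about the members is read from them. Peaks of both antibodies met at 5 of the 9 sites, those of Tpm2 and Cald1, the recurrent site of Myh11 and the sites of Mylk before the gene and far inside it. The other 4 sites, 1 each in Myh11 and Mylk and both of Synpo2, were H2AK119ub alone, and all 4 were in replicate 2, whose list is the longest. No site was BMI1 alone. Over all 17229 homeostasis sites, 43.1% had both antibodies, 43.7% H2AK119ub alone and 13.2% BMI1 alone. By recurrence, 3 of the 9 sites were in 1 list, and 1, 2, 1, 1 and 1 were in 2, 3, 4, 5 and 6 lists. In the whole series 50.0% of sites were in 1 list and 7.21% in all 6.

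After paraquat the members were empty, and the Damage lists could not have shown them at their homeostasis share. From window length and the peaks of each chromosome, all 10 windows together were expected to hold 0.0274 peaks over the 3 Damage BMI1 lists. For the 3 Damage H2AK119ub lists the number was 0.0283. Neither number uses the homeostasis share. With the limit for a count of 0 set at 3 peaks, the Damage lists allow a share of up to 15.8% in the list of 19 peaks and up to 4.41% in that of 68. The upper limits of the exact 95% binomial interval were 17.6 and 5.28%. Both kinds of limit were far above the 0.0532 to 0.1% seen at homeostasis. A peak in 1 or more Damage libraries was found at 0.142% of protein-coding genes for BMI1 and 0.151% for H2AK119ub. The Damage peaks closest to a member lay 280 kb from Cald1 and 353 kb from Acta2, and for the other 8 the distance was 4.13 to 32.9 Mb. Loss of peaks at the members themselves cannot be told apart from the shortness of the Damage lists.

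Other genes of the smooth muscle programme were counted in the same way from 3 lists. None of the 46 genes had a peak in 2 or more Damage libraries of an antibody, and a single Damage peak was found, in Prkg1 (Damage BMI1 replicate 2). Of 16 transcriptional regulators, 2 had a recurrent BMI1 peak and 3 a recurrent H2AK119ub peak at homeostasis, against 1.73 and 2.26 for genes of like length. Klf4, a factor that represses contractile genes, had 1, 1 and 1 BMI1 peaks and 1, 2 and 1 H2AK119ub peaks, all 4.79 to 4.99 kb outside the gene and thus near the limit of the window. These were 35.6 and 32.5 times the numbers expected for the length of Klf4, above the values of Tpm2 for both antibodies. The BMI1 counts of the 2 genes were the same. Klf4 is shorter, 5.34 kb against 9.86 kb, so its expected number is lower. Mrtfb, a coactivator of SRF, had 1 peak in each of the 6 lists, 2.71 and 2.11 times the expected numbers. Mrtfa, its relative, had 0, 1 and 0 BMI1 and 0, 1 and 1 H2AK119ub peaks, 0.931 and 1.32 times. Srf itself and Myocd, the cardiac and smooth muscle coactivator myocardin, had none in any of the 12 lists, like 80.6% of protein-coding genes.

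Of 18 other contractile and cytoskeletal genes, none had a recurrent BMI1 peak and Lpp alone had a recurrent H2AK119ub peak, against 1.74 and 2.27 for genes of like length. Lpp, a protein of focal adhesions, had 0, 2 and 1 H2AK119ub peaks in a gene of 599 kb, 0.595 times the expected number. Among 12 genes that regulate contraction, 5 had recurrent BMI1 peaks and 6 recurrent H2AK119ub peaks, against 2.60 and 3.26. These were Ppp1r12a and Ppp1r12b, which target myosin phosphatase, the kinase gene Prkg1, the calcium channel gene Cacna1c and the potassium channel gene Kcnma1, with the calcium release channel gene Itpr1 for H2AK119ub only. Ppp1r12a had 1, 2 and 1 BMI1 peaks and 1, 2 and 2 H2AK119ub peaks, 4.93 and 4.43 times the numbers expected for its 118 kb. Ppp1r12b had 0, 1 and 1 for each antibody, 1.60 and 1.09 times. Prkg1, 1201 kb long, had 1.51 and 1.38 times, Kcnma1 1.57 and 1.61 times, and Cacna1c 0.667 and 0.499 times the expected number. Itpr1 had 0.593 times the expected H2AK119ub peaks. The longest length class ran from 109 to 2390 kb, with a median of 185 kb. Prkg1, Kcnma1, Cacna1c, Itpr1, Ppp1r12b and Lpp are above that median, so most of the genes they were matched to were shorter.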

How the data were processed

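ChIP-seq peak lists of 12 libraries were analysed, 3 for each combination of treatment and antibody. Bowtie2, HOMER 4.8 and the build GRCm38 are named, per the submitters' processing notes. How peaks were called, and whether Input was used, is not given in the sources used here. Each score deposited by the authors is 1, so it ranks nothing, and depth per library is unknown. Peaks off the assembled chromosomes (143 of 39832) were left out of gene counts.

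Gene positions and promoters were those of RefSeq for GRCm38.p6 (250 bases before to 50 after a start). Of the members, 8 matched a promoter, Tagln and Myh11 not. A peak was counted with an overlap of 1 bp or more. The expected number is the peaks of the library on the chromosome, times window length, over the chromosome's span of peaks and genes. Sites are merged overlapping peaks of the 6 Homeostasis lists. Length classes hold 10 equal parts of the protein-coding genes.

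All 10 members were named. From the other lists, genes with a peak in 2 or more libraries of an antibody at homeostasis were named. The nearest other protein-coding genes to recurrent member sites were named too, except at the Cald1 site. Srf, Myocd and the Damage peak of Prkg1 were added after their values were seen. Genes like the member with the highest ratio were ranked by Euclidean distance. The members and lists were chosen with earlier results of these data known, so no test was run. Replicates are separate libraries, which may be technical. Alternatives were the window, the call rule, only peaks repeated in a group, merging within 1 kb, the overlap rule, the expectation and leaving out each library or member. Python 3.11.15, numpy 2.4.6 and pandas 2.3.3 were used, and the counting was tested on simulated peak lists.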

Additional observations from a re-analysis of the deposited data

How the results depend on the processing

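No paired analysis was possible because the results come from no test. The 0 peaks and 0 members of both Damage groups were the same under every alternative run. None of these could have raised them, as the Damage peak closest to a member lay 280 kb away. With gene bodies alone, 3 members had recurrent H2AK119ub peaks in place of 5, BMI1 peaks per Homeostasis library averaged 2.0 in place of 3.67, and the BMI1 observed over expected number was 1.14 in place of 1.87. Tpm2 then held 0.0 peaks per library for either antibody, and Mylk 1.0 BMI1 peaks in place of 1.67. With 2 kb flanks the BMI1 mean was 3.0. Requiring 3 of 3 libraries left 2 members for H2AK119ub. Leaving out 1 library gave 2 to 5 members for H2AK119ub (2 without replicate 2 or 3), 2 to 3 for BMI1, means of 3.5 to 6.5 H2AK119ub and 3.5 to 4.0 BMI1 peaks, ratios of 1.79 to 2.11 and 1.68 to 2.19, and 4 to 5 shared sites. Leaving out 1 member gave BMI1 ratios of 1.38 (without Tpm2) to 2.29 (without Synpo2), 1.44 without Mylk, and H2AK119ub ratios of 1.55 to 2.13. For the peaks per library of single genes, 117 other values moved by no more than the spread between replicates. Leaving out 1 of 3 libraries cannot move a mean beyond that spread, and genes without peaks stayed at 0. The number 117 therefore does not measure stability. The score is constant, so no stricter score threshold was tried. With 3 libraries a group and counts of 0 to 2 peaks per gene, 1 peak more or less decides most calls at single genes.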

Other observations

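The first Mylk site was in Homeostasis BMI1 replicates 1 and 3 and Homeostasis H2AK119ub replicate 1, the 3 shortest Homeostasis lists, and the 3 longest had no peak closer than 69.96 kb to it. Of 1915 sites found in exactly 3 of the 6 lists, 41 (2.14%) had this combination, and 1148 (59.9%) were in the 3 longest lists. Of the combinations of 3 lists that include Homeostasis H2AK119ub replicate 1 it was the most frequent, the next having 16 sites. Of the 1987 sites of that replicate, 221 (11.1%) were in none of the 3 longest lists. The site also stood within the first 3.5% of the lines of each list that holds it. The labels do not say what the line order means, though it was shared between libraries: over the 15 pairs of Homeostasis lists, line positions of common sites had a Spearman rho of 0.634 to 0.764 across sites (1558 to 6322 sites a pair, as a description). Of 70 sites in the first 5% of all 3 shortest lists, 40 were in all 3 longest lists and 16 in none of them. What sets these 16 apart was not tested.

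The recurrent Tpm2 site ranged more widely in line position, from the first 4.0% of Homeostasis H2AK119ub replicate 2 to 88.1% of the way down replicate 1 of the same group. Ly6a, which encodes Sca1, and Ptprc, which encodes CD45, were without peaks in all 12 lists, as were 80.6% of protein-coding genes. Nothing about the gate is read from this.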
